A study of Drosophila melanogaster with 15 samples.

Results

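Circadian clock genes were followed in astrocytes sorted from the *Drosophila* brain after traumatic brain injury (TBI). The 9 genes, chosen by FlyBase identifier from the 17509 genes of the expression table, were *Clk*, *cyc*, *per*, *tim*, *vri*, *Pdp1*, *cwo*, *cry* and *dbt*, and all 9 had values in all 15 samples. Adult flies of the genotype *R86E01-Gal4/UAS-Redstinger*, taken 3 days after eclosion and kept at 25 °C, gave brains 4 hr after TBI, 24 hr after TBI or with no injury, with 5 replicates in each group. All 3 groups carried the same driver and the red reporter Redstinger, so the astrocyte label rests on the cells in which *R86E01-Gal4* is active and on the red gate of the sorter. About 50 brains were pooled for each group and 1600 red cells were sorted into lysis buffer per sample. The labels do not say whether the replicates came from separate sets of flies, so the p-values measure the spread between these samples. The hour of the day at which flies were dissected and the light schedule are not given in the sources used here, and for genes whose RNA cycles over the day the time after injury and the time of day cannot be told apart.

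In the fly clock, the CLOCK (*Clk*) and CYCLE (*cyc*) proteins form a dimer that binds E-box sequences and switches on *per*, *tim*, *vri*, *Pdp1* and *cwo*. PER and TIM then enter the nucleus and block CLOCK and CYCLE, VRI represses and PDP1 activates *Clk* transcription, and CWO, a basic helix-loop-helix-orange repressor, binds the same E-boxes. The kinase Doubletime (*dbt*) phosphorylates PER and sets its turnover, and cryptochrome (*cry*) is a blue-light receptor that sends TIM for degradation. The loop is best known in clock neurons and photoreceptors, but fly glia also express PER, and glial output genes such as *ebony* shape daily locomotion.

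Of the 9 clock genes, only *cwo* was differentially expressed 4 hr after TBI. Its level was higher in every 4 hr library than in any uninjured one, and at 24 hr it lay far below the 4 hr level. *cry* was differentially expressed between the injured groups, being higher at 24 hr than at 4 hr, whereas *per*, *tim*, *Clk*, *cyc*, *vri*, *Pdp1* and *dbt* did not pass the test in any of the 3 comparisons. Values are TPM (transcript abundance), which is scaled by gene length and to the same total in every library, so levels can be set side by side between genes. The gene lengths behind these values are not given in the sources used here, and the order of genes by level depends on them. A gene was counted as differentially expressed when limma gave a Benjamini-Hochberg adjusted p below 0.01 over the 8101 genes tested and a log2 fold change of at least 1 in size, on the log2(TPM + 1) scale.

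**Figure D1:**
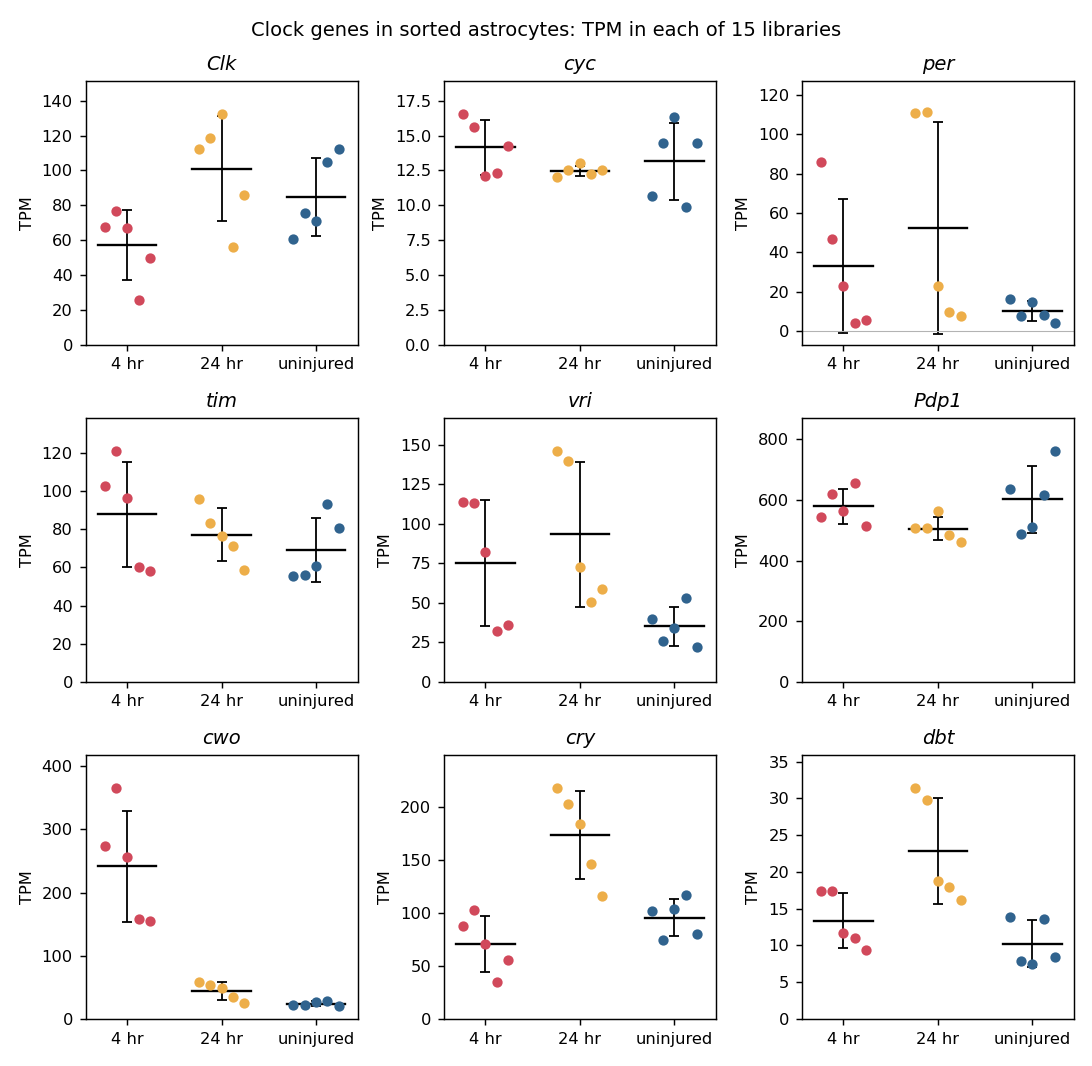
TPM of each clock gene (y axis, from 0) in the 5 libraries of the 4 hr, 24 hr and uninjured groups (x axis, replicates 1 to 5 from left to right within a group). Black lines are means and bars are SD. The 5 *cwo* values at 4 hr lie between 156 and 365 TPM, above all values of the 24 hr group (24.9 to 59.0) and of the uninjured group (19.8 to 28.9), while *per* has 2 libraries at about 111 TPM at 24 hr and the other 3 at 23.1 or less.

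Astrocyte markers dominated the markers of all cell types examined. The 8 astrocyte genes summed to 50859 to 84423 TPM in each library, with *alrm* at 13609 TPM or more. All 10 photoreceptor genes together reached at most 2.38 TPM and the 4 hemocyte genes at most 1.15 TPM. The 9 neuronal genes summed to 31.9 to 81.5 TPM at 4 hr, 29.5 to 168 TPM at 24 hr and 19.1 to 56.1 TPM in uninjured samples. Markers of other glia were present too. The 4 surface glia genes summed to 45.1 to 149 TPM at 4 hr, 44.8 to 134 TPM at 24 hr and 35.0 to 54.7 TPM in uninjured samples, with *Mdr65* at 0.76 TPM or less and *moody* at a log2 fold change of 1.50 at 4 hr and 1.46 at 24 hr (limma adjusted p = 0.029 and 0.031). The 2 cortex glia genes summed to 53.1 to 136 TPM at 4 hr, 137 to 240 TPM at 24 hr and 78.7 to 135 TPM in uninjured samples. At 24 hr *wrapper* had a log2 fold change of 2.74 and *zyd* of 0.72 (limma adjusted p = 0.015 and 0.046). The surface glia genes *Tret1-1* and *vkg* had 0.10 and 1.74 at 24 hr (limma adjusted p = 0.86 and 0.087). Of the 8 astrocyte genes, 0 were called at 24 hr and 2 had an adjusted p below 0.05. These were *htl* with a log2 fold change of 1.46 and *Obp44a* with 0.64 (limma adjusted p = 0.015 and 0.038). The median of the 8 was 0.45 at 24 hr, against 0.51 for all tested genes. Over all tested genes 13.2% had an adjusted p below 0.05 at 4 hr and 19% at 24 hr. Of the neuropeptide genes of clock neurons, *Pdf* reached 5.28 TPM at most and was at 0 in 5 libraries. *Dh31* and *AstC* were at 0 in 12 libraries each and reached 2.21 and 7.20 TPM. *sNPF* was at 0 in 7 libraries and reached 39.9 TPM in an uninjured one. *ITP* was present in all 15, at 12.8 to 30.4 TPM at 4 hr, 27.6 to 49.0 TPM at 24 hr and 18.6 to 27.3 TPM in uninjured samples. Transcripts of the mitochondrial genome took 11.5% to 43.2% of TPM at 4 hr, 15.2% to 37.2% at 24 hr and 32.7% to 51.8% in uninjured samples. The number of genes above 0 was 9127 to 9939 at 4 hr and 9075 to 10005 at 24 hr, against 8440 to 8737 in uninjured samples. The median gene was higher by 0.31 at 4 hr and 0.51 at 24 hr on the log2 scale. Fold changes and calls are measured from 0, and that shift was not subtracted from them. In sorted bulk samples, fewer cells of a type and less RNA per cell cannot be told apart.

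*Pdp1* was the most abundant clock RNA in every group, at 580 ± 57.7 TPM at 4 hr, 505 ± 38.4 TPM at 24 hr and 602 ± 110 TPM in uninjured samples (SD, n = 5, as for all such values). At 4 hr the second place was taken by *cwo*, whose libraries overlapped neither those of *Pdp1* above it nor those of *tim* below it. At 24 hr the second place was held by *cry*, and *cwo* was in the seventh, between *per* and *dbt* and overlapping both. In uninjured astrocytes *cry* was second at 95.6 ± 17.5 TPM, followed by *Clk* at 84.7 ± 22.5 TPM and *tim* at 69.2 ± 16.9 TPM, and neighbours in this order overlapped from *cry* to *tim*. Below a gap, *vri* had 35.0 ± 12.3 TPM and *cwo* 23.7 ± 3.98 TPM, again with overlap. *cyc*, *per* and *dbt* were the lowest in uninjured samples, at 13.2 ± 2.76, 10.3 ± 5.04 and 10.3 ± 3.17 TPM, and they did not separate from each other.

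*Clk* encodes the basic helix-loop-helix activator that pairs with CYCLE, and it lies on chromosome 3L at 7763233 to 7775603 (dm6, as for all positions). The 4 hr libraries held 67.4, 76.6, 67.0, 25.9 and 49.6 TPM of *Clk* in replicates 1 to 5, the order used for every gene here. The 24 hr libraries held 112, 118, 132, 56.0 and 85.8 TPM, and the uninjured libraries held 60.4, 75.4, 71.0, 105 and 112 TPM. Replicate 4 was the lowest of both injured groups, and each injured group overlapped the uninjured one. The log2 fold change of *Clk* was -0.61 (SE 0.29) at 4 hr and 0.23 (SE 0.29) at 24 hr against uninjured, with limma adjusted p of 0.19 and 0.58. At 24 hr against 4 hr it was 0.84 (SE 0.29, limma adjusted p = 0.12), and 4 of the 5 24 hr libraries lay above all 4 hr libraries.

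*cyc*, the partner of *Clk*, lies on chromosome 3L at 19813770 to 19815938 and did not pass the test in any comparison. It had 16.6, 15.6, 12.1, 12.3 and 14.3 TPM at 4 hr, 12.1, 12.5, 13.0, 12.3 and 12.5 TPM at 24 hr, and 10.7, 14.4, 16.3, 9.86 and 14.5 TPM in uninjured samples. The 24 hr libraries differed by a factor of 1.08 between the highest and the lowest, and all 5 fell inside the uninjured range. The 95% interval of the log2 fold change of *cyc* ran from -0.35 to 0.57 at 4 hr and from -0.51 to 0.41 at 24 hr against uninjured.

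*per* (X, 2685580 to 2692780), whose protein is the core repressor, differed more among replicates than between groups. At 4 hr it had 86.0, 47.0, 23.2, 3.95 and 5.86 TPM. At 24 hr the values were 111, 111, 23.1, 9.79 and 7.65 TPM, and in uninjured samples they were 16.1, 7.87, 15.01, 8.08 and 4.40 TPM. In both injured groups replicates 1, 2 and 3 were above every uninjured library, and replicates 4 and 5 lay in or below the uninjured range. The highest *per* value was 21.8 times the lowest at 4 hr and 14.5 times at 24 hr, against 3.66 times in uninjured samples. With this spread the log2 fold changes of 0.97 (SE 0.81) at 4 hr and 1.58 (SE 0.81) at 24 hr had limma adjusted p of 0.47 and 0.15. The 95% interval of *per* at 24 hr ran from -0.12 to 3.28.

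*tim* (2L, 3493986 to 3508119), which stabilizes PER, had a smaller spread among replicates than *per*. It had 103, 121, 96.6, 60.5 and 58.3 TPM at 4 hr. At 24 hr *tim* had 95.9, 83.6, 76.3, 71.4 and 58.8 TPM, and the uninjured libraries had 55.4, 56.0, 60.8, 93.2 and 80.7 TPM. In both injured groups replicates 1 to 3 were above replicates 4 and 5, as for *per*. The groups overlapped in all 3 comparisons, and the log2 fold changes of *tim* against uninjured were 0.31 (SE 0.23) at 4 hr and 0.17 (SE 0.23) at 24 hr, with limma adjusted p of 0.41 and 0.60. These signs turned under other scalings (-0.03 and -0.33 with size factors), so no direction is given. Of the annotated *tim* exons, 9.89% are shared with an antisense lncRNA and a snoRNA, and reads of the overlap may be assigned to either.

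*vri* (2L, 5288944 to 5311223), the bZIP repressor of *Clk*, showed the same split of replicates as *per*. It had 114, 113, 82.3, 32.0 and 36.1 TPM at 4 hr. The 24 hr values were 146, 140, 72.3, 50.4 and 58.8 TPM, and the uninjured values were 39.8, 25.6, 34.2, 53.1 and 22.3 TPM. Replicates 1 to 3 stood above the uninjured libraries at both times, and at 24 hr replicate 5 did so as well. The log2 fold change of *vri* was 0.96 (SE 0.39, limma adjusted p = 0.12) at 4 hr and 1.32 (SE 0.39, limma adjusted p = 0.031) at 24 hr against uninjured, and the exact permutation p at 24 hr was 0.0159. The 24 hr value missed the threshold of 0.01, and it was 0.82 with size factors and 0.23 once the mitochondrial share of each library was a covariate.

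*Pdp1* (3L, 7811458 to 7867369), the bZIP activator of *Clk*, did not pass the test in any comparison. The values were 543, 620, 565, 656 and 515 TPM at 4 hr, 507, 506, 565, 484 and 461 TPM at 24 hr, and 635, 487, 510, 616 and 761 TPM in uninjured samples. All groups overlapped, and 2 of the 24 hr libraries lay just below the uninjured range. The log2 fold change of *Pdp1* was -0.04 (SE 0.15, limma adjusted p = 0.89) at 4 hr and -0.24 (SE 0.15, limma adjusted p = 0.24) at 24 hr. The 24 hr value was -0.74 (limma adjusted p = 0.022) with size factors and -0.65 (limma adjusted p = 0.045) with the mitochondrial genome removed. The gene has several promoters and isoforms, of which the clock uses one, and the table gives 1 value per gene.

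*cwo* (3R, 10388258 to 10400752) encodes the repressor that competes at E-boxes and was the one clock gene that passed the test at 4 hr. At 4 hr the libraries had 273, 365, 256, 158 and 156 TPM. The 24 hr libraries had 59.0, 53.3, 49.0, 34.9 and 24.9 TPM, and the uninjured libraries had 21.6, 21.3, 26.9, 28.9 and 19.8 TPM. Every 4 hr library was above every other library, and at 24 hr 4 of the 5 were above all uninjured ones while replicate 5 was within their range. The mean of *cwo* at 4 hr, 242 ± 87.9 TPM, was 10.2 times the uninjured mean. The log2 fold change was 3.23 (SE 0.27, limma adjusted p = 2.1e-07), and 0.469% of the tested genes had a higher one. The exact permutation p was 0.00794, the smallest that 5 against 5 samples can give.

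At 4 hr against uninjured, 1 of 9 clock genes was called higher (*cwo*) and 0 lower, against a background of 5.99% of tested genes called in either direction and 5.76% called higher. It was also the only one of the 9 whose 4 hr and uninjured libraries did not overlap, a pattern held by 8.68% of all tested genes in the higher direction. At an unadjusted p below 0.05 the count was 2, *cwo* and *vri*, both higher. The share of all tested genes at the unadjusted cut was not counted. Counts at that cut, here and below, therefore have no background and are not read as a result. At an adjusted p below 0.05 *cwo* alone remained, beside 13.2% of all tested genes. The call was kept when any 1 of the 15 libraries was left out, with log2 fold changes of 3.06 to 3.37, and under all other settings, where the lowest was 2.63 with the mitochondrial share as a covariate. With that covariate, *Clk* (-1.18) and *cry* (-1.10) also passed, as lower at 4 hr.

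Between the injured groups, *cwo* was lower at 24 hr than at 4 hr by a log2 fold change of -2.41 (SE 0.27, limma adjusted p = 2.7e-05, exact permutation p = 0.00794), with all 5 libraries of 24 hr below all 5 of 4 hr. The same 4 hr libraries enter both contrasts, so the 2 are not independent. Against uninjured, the 24 hr level of *cwo* was 44.2 ± 14.0 TPM, a log2 fold change of 0.82 (SE 0.27, limma adjusted p = 0.041, exact permutation p = 0.0238), which was not counted as a change. That value was 0.33 with size factors and 0.11 once the mitochondrial share was a covariate.

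*cry* (3R, 19212154 to 19215442) moved between the injured groups in the other direction. The 24 hr libraries had 218, 203, 184, 146 and 116 TPM, against 87.7, 103, 71.1, 35.2 and 56.1 TPM in the 4 hr libraries. All 24 hr values lay above all 4 hr values, and the uninjured libraries, at 102, 74.8, 103, 117 and 80.6 TPM, lay between and overlapped both. The log2 fold change of *cry* at 24 hr against 4 hr was 1.34 (SE 0.26, limma adjusted p = 0.0043, exact permutation p = 0.00794). Against uninjured it was -0.50 (SE 0.26, limma adjusted p = 0.22) at 4 hr and 0.84 (SE 0.26, limma adjusted p = 0.035, exact permutation p = 0.0159) at 24 hr, neither of which passed. With size factors the value was -0.84 at 4 hr (limma adjusted p = 0.0073, under the size threshold) and 0.34 at 24 hr, where the mitochondrial covariate gave 0.13. Exons of *cry* share 17.8% of their length with other genes, nearly all of it with a lncRNA on the same strand.

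At 24 hr against 4 hr, then, *cry* was the 1 clock gene called higher and *cwo* the 1 called lower, where 0.42% of all tested genes were called higher and 1.58% lower, 2% in all. These 2 were also the only clock genes whose libraries did not overlap between the injured groups, as 3.47% of tested genes did in the higher and 3.63% in the lower direction. The call of *cry* was lost, at limma adjusted p of 0.012 to 0.015, without replicate 3 or 5 of the 4 hr group or replicate 1, 2 or 3 of the 24 hr group, although the log2 fold change stayed between 1.12 and 1.50 over all 15 omissions.

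*dbt* (3R, 31054085 to 31061210, listed as *dco* in the annotation), the casein kinase of PER, was the one clock gene whose 24 hr libraries were all above the uninjured ones. It had 17.4, 17.4, 11.7, 11.1 and 9.33 TPM at 4 hr. The 24 hr values were 31.4, 29.8, 18.8, 17.9 and 16.2 TPM, against 13.8, 7.91, 7.51, 13.6 and 8.44 TPM in uninjured samples. The lowest 24 hr library was thus 16.2 TPM and the highest uninjured one 13.8 TPM, a narrow gap. The log2 fold change of *dbt* at 24 hr was 1.07 (SE 0.28, limma adjusted p = 0.021, exact permutation p = 0.00794), which exceeded the size threshold but not that for the p-value. It was 0.60 with size factors and 0.51 with quantile normalization. At 4 hr the log2 fold change was 0.36 (SE 0.28, limma adjusted p = 0.45).

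No clock gene was called at 24 hr against uninjured, where 2.32% of tested genes were called by limma. The count at an unadjusted p below 0.05 was 4, and the same genes, *cry*, *vri*, *cwo* and *dbt*, had an adjusted p below 0.05, all higher, beside 19% of all tested genes with an adjusted p below 0.05 in either direction. *dbt* was the 1 gene of the 9 without overlap, against 12.5% of tested genes in that direction. The median log2 fold change of the 9 genes was 0.31 at 4 hr and 0.82 at 24 hr, against 0.31 and 0.51 for all tested genes.

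**Figure D2:**
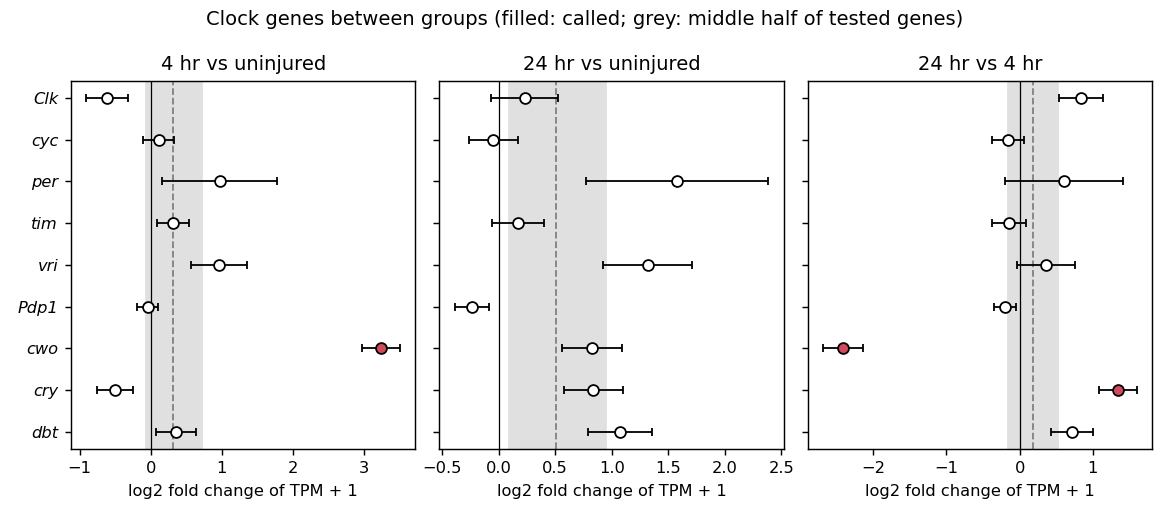
Log2 fold change of TPM + 1 (x axis, bars are SE) of each clock gene for 4 hr against uninjured, 24 hr against uninjured and 24 hr against 4 hr. Filled points passed the test, the dashed line is the median of the tested genes and the grey band runs between their quartiles. *cwo* stands at 3.23 at 4 hr and -2.41 at 24 hr against 4 hr, where *cry* stands at 1.34, and the bars of *per* are the widest, with an SE of 0.81.

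Ratios between clock genes within a library do not depend on how that library was scaled. The ratio of *cwo* to *tim*, 2 genes that CLOCK and CYCLE activate, was 2.65, 3.02, 2.65, 2.61 and 2.67 at 4 hr. It was 0.615, 0.638, 0.641, 0.488 and 0.424 at 24 hr, and 0.390, 0.381, 0.442, 0.311 and 0.245 in uninjured samples. The 4 hr ratios were within a narrow band although *cwo* itself varied by a factor of 2.35 among those libraries. The 24 hr and uninjured ratios overlapped through 1 library of each, and this depended on the denominator. The ratio of *cwo* to *Pdp1* was 0.0540 to 0.116 at 24 hr and 0.0260 to 0.0527 in uninjured samples, without overlap. For *cwo* to *Clk* it was 0.290 to 0.623 and 0.176 to 0.379, with overlap.

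For *cry* to *tim* the ratio was 0.852, 0.851, 0.736, 0.581 and 0.961 at 4 hr, below every uninjured library. At 24 hr it was 2.27, 2.43, 2.41, 2.05 and 1.98, above every uninjured library, and the uninjured ratios were 1.83, 1.34, 1.70, 1.26 and 0.999. The 3 groups thus did not overlap in this ratio, while *cry* itself overlapped the uninjured group at both times. The highest 4 hr ratio, 0.961, was close to the lowest uninjured one, 0.999. This separation depended on the denominator. The ratio of *cry* to *Clk* was 1.06 to 1.36 at 4 hr and 1.36 to 2.61 at 24 hr. In uninjured samples it was 0.718 to 1.68, which overlapped both. Ratios of *per* to *tim* ran from 0.0653 to 0.835 at 4 hr and from 0.130 to 1.33 at 24 hr, against 0.0545 to 0.291 in uninjured samples, with overlap throughout. The ratio of *Clk* to *cyc*, the partners of the activating dimer, was 2.10 to 5.54 at 4 hr and 4.56 to 10.2 at 24 hr, against 4.36 to 10.6 in uninjured samples. These ratios were chosen after the levels were seen and carry no test.

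**Figure D3:**
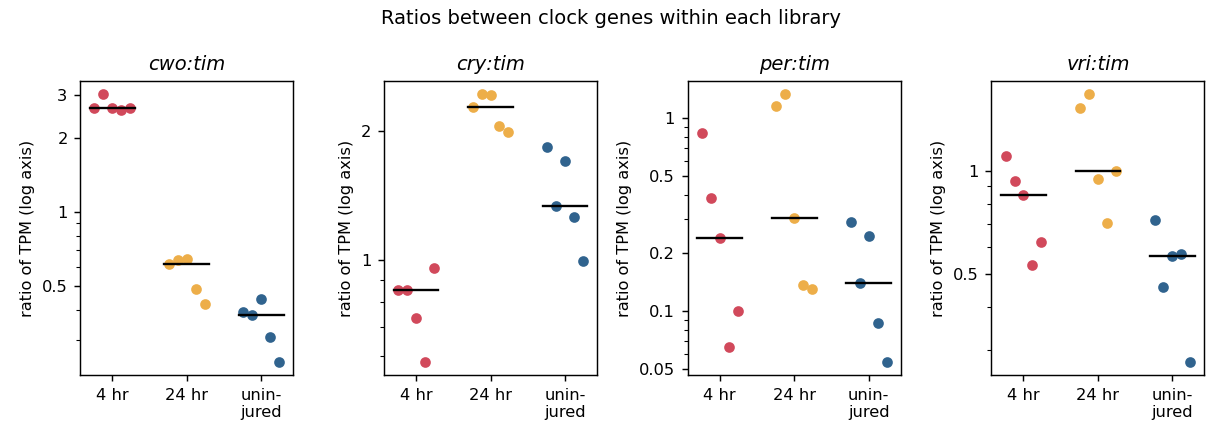
Ratio of the TPM of *cwo*, *cry*, *per* and *vri* to that of *tim* (y axes, log scale) in the 5 libraries of the 4 hr, 24 hr and uninjured groups (x axis), with medians as lines. The *cwo* to *tim* ratio is 2.61 to 3.02 at 4 hr, and the *cry* to *tim* ratio separates all 3 groups. The ratio of *cry* to *Clk*, not shown, does not separate them.

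Within the injured groups the replicates differed in a way that most clock genes shared. Replicates 1 and 2 had the highest values of 8 of the 9 genes at 4 hr (all but *Pdp1*) and of 6 of the 9 at 24 hr (*per*, *tim*, *cry*, *vri*, *cwo* and *dbt*). The same held for 37.1% of all tested genes at 4 hr and 32.5% at 24 hr. At both times these libraries had the lowest mitochondrial share, 17.2% and 11.5% at 4 hr and 15.7% and 15.2% at 24 hr. They also had the highest neuronal sums, 75.6 and 81.5 TPM at 4 hr and 168 and 93.0 TPM at 24 hr, against at most 62.1 TPM in the other injured libraries. Their surface glia sums were the highest as well, 149 and 140 TPM at 4 hr and 134 and 131 TPM at 24 hr, against at most 97.6 TPM in the other injured libraries, and so were their cortex glia sums within each group, 136 and 122 TPM at 4 hr and 240 and 194 TPM at 24 hr. Astrocyte sums were the highest there at 4 hr too, at 75122 and 74541 TPM against at most 61674 TPM. At 24 hr they were 70428 and 71555 TPM, above the 62326 and 62894 TPM of replicates 4 and 5 and below the 84423 TPM of replicate 3. The part of neuronal RNA, of RNA of other glia or of the mitochondrial share in the high *per* and *vri* of replicates 1 and 2 was not tested. At 4 hr *cwo* had 365 TPM at a mitochondrial share of 11.5%, 273 TPM at 17.2% and 256 TPM at 26.9%. It had 156 TPM at 36.3% and 158 TPM at 43.2%, and all 5 values were above the uninjured range. The part of the share in these values was not tested either. With the mitochondrial share as a covariate, a fit chosen after the data were seen, the log2 fold change of *per* was -1.04 at 4 hr and -0.78 at 24 hr, opposite in sign to the values above.

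**Figure D4:**
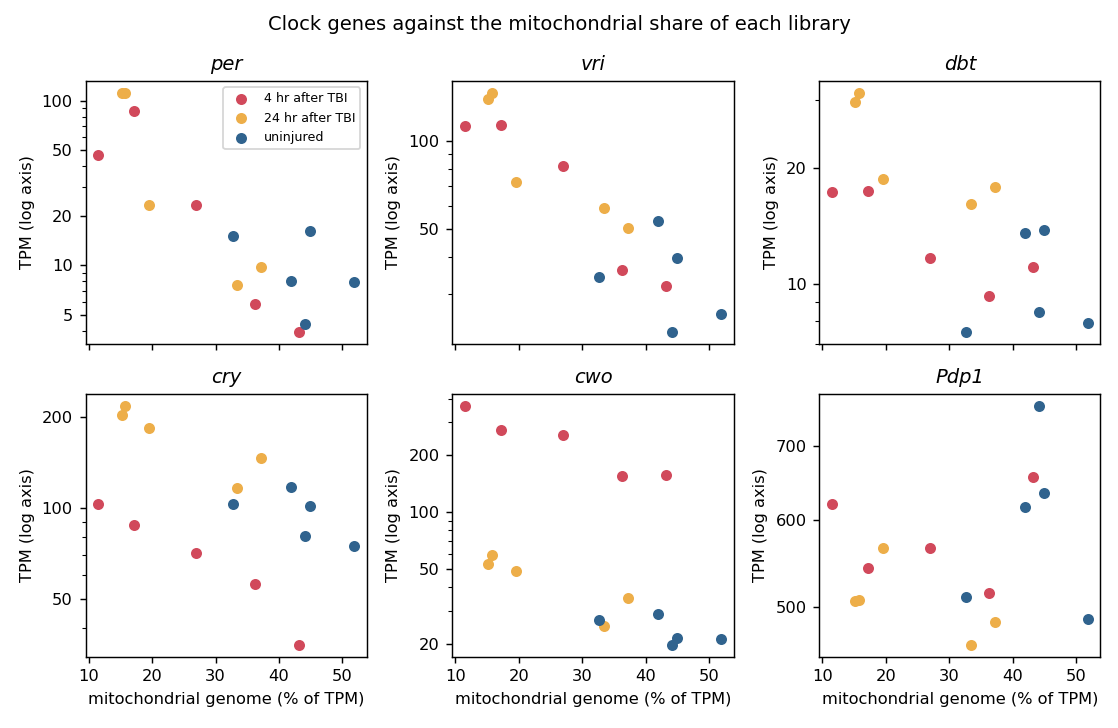
TPM of 6 clock genes (y axes, log scale) against the share of TPM from the mitochondrial genome (x axis, percent) in the 15 libraries, coloured by group. *per* and *vri* are highest in injured libraries with a mitochondrial share under 20%. The 5 *cwo* values at 4 hr lie at 156 TPM or more at shares of 11.5% to 43.2%, with the highest, 365 TPM, at 11.5%.

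Among themselves, *per* and *vri* were the pair most alike, with a Pearson r of 0.90 for log2(TPM + 1) over the 15 libraries, and 0.92 after the group means were subtracted. *dbt* and *vri* had r of 0.87, *Clk* and *cry* 0.79, and *Clk* and *cwo* -0.37. Once group means were subtracted, *cwo* and *cry* had r of 0.91, although their group means moved apart. These points share the scaling and the library differences above, so the coefficients describe these libraries and have no p.

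Over all tested genes, those most like *cwo* were *Drat*, which encodes an alcohol dehydrogenase-domain protein (r = 0.99), and *Jra*, the fly Jun (r = 0.98), and both were themselves called higher at 4 hr and lower at 24 hr against 4 hr. *Drat* had a log2 fold change of 6.62 and *Jra* of 2.17 at 4 hr against uninjured. The clock gene nearest to *cwo* was *tim*, in place 1280 of 8100 (r = 0.55). For *cry* the nearest were *Iru*, a ubiquitin ligase, and *CG5895* (r = 0.96 and 0.95), and for *vri* the phosphatase *Ptp61F* and the kinase *Mekk1* (both 0.98). *per* was nearest to *ND-75*, a nuclear gene for a subunit of respiratory complex I, and to *Socs16D* (both 0.98), with *vri* in place 293. *dbt* was nearest to *Sara* and *Smg6* (both 0.94), *Clk* to *Rhau* (0.89) and *CG5254* (0.86), and *tim* to *CG46385* and *CG34417* (both 0.87). For *cyc* (*CG8671* and *Tbcc*) and *Pdp1* (*Zdhhc8* and *Pih1D1*) no gene exceeded r of 0.82. Once group means were subtracted, the nearest gene was another one for 6 of the 9, among them *tara* for *cwo* (r = 0.95), *CG11417* for *per* (0.99) and *Bap170* for *cry* (0.97), and the same for *cyc*, *vri* and *dbt*.

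The other genes of the pathway were taken from a list of 36 symbols, of which 35 were in the table and 29 passed the filter. No gene of the list was called by limma at 4 hr, where 4 had an unadjusted p below 0.05 and 2 had an adjusted p below 0.05 (13.2% of all tested genes did), and 2 were called at 24 hr, both higher, beside the background of 2.32%. At 24 hr against uninjured 15 of the 29 had an unadjusted p below 0.05, 13 of them higher. Of the 29, 7 higher and 1 lower had an adjusted p below 0.05, beside 19% of all tested genes in either direction. At 24 hr against 4 hr limma called 0 of them, with 5 at an unadjusted p below 0.05. The median log2 fold change of the 29 was 0.23 at 4 hr and 0.42 at 24 hr, under the 0.31 and 0.51 of all tested genes.

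Both genes called were ubiquitin ligase genes. *slmb*, the F-box protein that binds phosphorylated PER, had 48.6 ± 12.9 TPM at 24 hr and 20.3 ± 4.75 TPM in uninjured samples, a log2 fold change of 1.20 (SE 0.24, limma adjusted p = 0.0064). *ctrip*, a ligase that acts on CLOCK, had 166 ± 48.9 TPM at 24 hr and 77.7 ± 7.13 TPM in uninjured samples (1.05, SE 0.19, limma adjusted p = 0.0041). Of the 29 genes, 5 lay higher without overlap at 24 hr and 1 at 4 hr, beside 12.5% and 8.68% of all tested genes. *slmb* and *ctrip* were among the 5 at 24 hr. *Cul3*, a cullin scaffold that acts on TIM, did not overlap either, at 24.8 to 40.4 TPM at 24 hr against 13.5 to 19.5 TPM in uninjured samples, but its log2 fold change of 0.95 (limma adjusted p = 0.014) was not a call. Of the 6 genes of ubiquitination and turnover, 4 had an adjusted p below 0.05 at 24 hr, all higher, beside 19% of all tested genes in either direction and a median shift of all genes of 0.51. Both calls depended on the scaling, and neither passed with size factors (0.72 for *slmb* and 0.55 for *ctrip*), quantile normalization or the mitochondrial genome removed. The call of *slmb* was lost without uninjured replicate 1, 2 or 5, 4 hr replicate 3 or 24 hr replicate 1, 2 or 3 (log2 fold changes of 1.09 to 1.23), and that of *ctrip* without uninjured replicate 2 or 24 hr replicate 1 or 2 (0.89 to 1.04).

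Of the 4 genes for translation of *per*, 1 had an adjusted p below 0.05 at 24 hr, beside 19% of all tested genes. That one, *tyf*, had 40.5 to 60.5 TPM at 24 hr and 24.3 to 39.5 TPM in uninjured samples (log2 fold change 0.63, limma adjusted p = 0.036). *Atx2* had a log2 fold change of 0.66 (limma adjusted p = 0.12) with overlap. *Lsm12*, which acts with *Atx2*, was also without overlap. In the higher direction 8.68% of tested genes were so at 4 hr and 12.5% at 24 hr. *Lsm12* had 43.5 to 63.7 TPM at 4 hr and 42.9 to 51.9 TPM at 24 hr, against 31.9 to 42.0 TPM in uninjured samples. Its log2 fold changes of 0.38 and 0.28 did not pass (limma adjusted p = 0.16 and 0.23), and the 24 hr sign turned with size factors (-0.21). *lark*, an RNA-binding protein known for the daily gating of eclosion, was the one listed gene that lay lower without overlap, which 0.518% of tested genes did at 24 hr, with 79.1 to 123 TPM at 24 hr against 143 to 181 TPM in uninjured samples (log2 fold change -0.72, limma adjusted p = 0.011). It was called with size factors (-1.22). None of the 9 kinase and phosphatase genes of PER and TIM and none of the 5 tested input and output genes was called by limma. At 24 hr against uninjured 2 of those 9 and 0 of those 5 had an adjusted p below 0.05, beside 19% of all tested genes, and 4 and 2 had an unadjusted p below 0.05. *Rh7*, *na* and *to* stayed under 1 TPM in all 15 libraries.

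**Figure D5:**
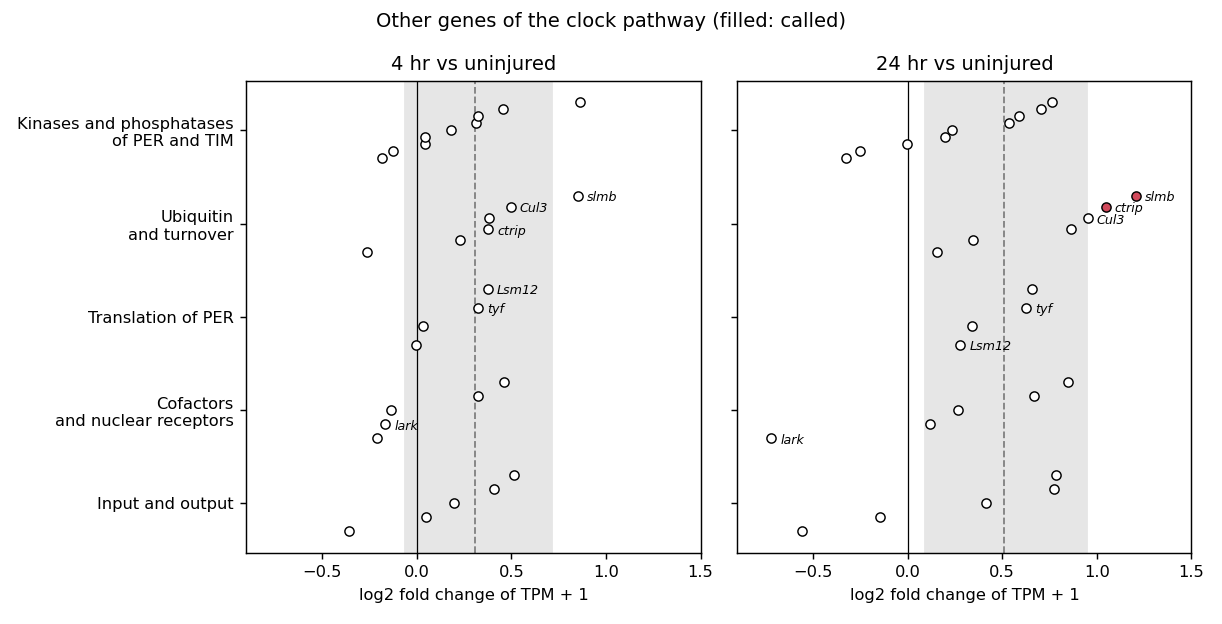
Log2 fold change of TPM + 1 (x axis) of the 29 tested genes of the clock pathway, grouped by role (y axis), at 4 hr and at 24 hr against uninjured. The dashed line is the median of all tested genes and the grey band runs between their quartiles. Filled points passed the test, *slmb* at 1.20 and *ctrip* at 1.05 at 24 hr, and *lark* is the lowest point at 24 hr with -0.72.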

How the data were processed

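RNA-seq was done on 15 samples of sorted astrocytes, 5 in each of 3 groups set by the sample titles. Per the methods and the submitters' notes, the authors made Smart-seq2 libraries (poly(A)-primed cDNA), trimmed reads with Trimmomatic 0.39, aligned them to dm6 with Hisat2, counted them with HTSeq and tested counts with DESeq2 1.30.1; the notes also name STAR 2.6.0a and RSEM 1.3.1. The authors deposited TPM per gene, to 2 decimals, and how TPM was computed is not given in the sources used here. The paper gives a total and an average number of reads, but the number for each library is not given in the sources used here, so precision comes from the replicates alone.

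Genes that reached 1 TPM in 5 or more samples (8101 of 17509) were fitted as log2(TPM + 1) in 1 model of 3 groups with limma 3.58.1 in R 4.3.3, with trended moderated variances, and p-values were adjusted by Benjamini-Hochberg over all of them. A fold change on this scale understates the change of low genes. As in the study, a call needed both an adjusted p under 0.01 and a log2 fold change of 1 or more in size. For 7 of the single-gene comparisons an exact permutation p (2-sided, mean TPM, 252 arrangements) is given as well, unadjusted. The fit was also run on simulated data in which the noise of each gene and sample was independent. Differences that a whole library shares were not simulated, so that run cannot show how they affect the calls. Positions and exon overlaps come from the BDGP6 annotation, built on dm6.

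The clock genes, the pathway list and the marker lists were chosen with earlier results of these data known. All 9 clock genes are named. Of the pathway list, genes are named that were called, or whose injured and uninjured libraries did not overlap, and for each clock gene the 2 tested genes of highest Pearson r over the 15 samples. *Rh7*, *na*, *to*, *Atx2*, *mts* and the markers were named after their values were seen. *AANAT1* of the list was not matched to the table.

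Alternatives were pseudocounts of 0.1 and 0.01, no filter, a filter at TPM 5, median-of-ratios size factors, quantile normalization, removal of the 37 mitochondrial genes, fits of 2 groups, no variance trend, array weights, a block for replicate number, a looser adjusted p (0.05) and leaving out each sample. The mitochondrial share as a covariate was added after the data were seen. Tables were made in Python 3.11.15 with pandas 2.3.3, NumPy 2.4.6 and SciPy 1.17.1, and figures with matplotlib 3.10.9.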

Additional observations from a re-analysis of the deposited data

Results flagged for a closer look

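*cwo* and *cry* differed between the injured groups themselves, which is the difference of their effects at 24 hr and at 4 hr, since the uninjured libraries cancel. *cwo* had a log2 fold change of -2.41 at 24 hr against 4 hr (limma adjusted p = 2.7e-05), with effects against uninjured of 0.82 at 24 hr and 3.23 at 4 hr. *cry* had 1.34 (limma adjusted p = 0.0043), with effects of 0.84 at 24 hr and -0.50 at 4 hr. No clock gene had a library far from the other 4 of its group in the 27 groups of 5 values that were examined. The rule took the highest or the lowest value alone, so it could not flag 2 libraries that stand apart together. Such a pair was *per* at 24 hr, with 111 TPM in replicates 1 and 2.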

How the results depend on the processing

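The calls of *cwo* at 4 hr (log2 fold change 2.63 to 3.37) and at 24 hr against 4 hr (-2.56 to -2.41; -2.55 to -2.23 with 1 library left out) were kept under every alternative run. With the mitochondrial share as a covariate, chosen after seeing the data, 3 clock genes were called at 4 hr. With the replicate block, or at an adjusted p below 0.05, 2 clock genes (*dbt* and *vri*) were called at 24 hr against uninjured. That block rests on the numbers of the sample titles, which the column names do not share. At 24 hr against 4 hr, 1 clock gene (*cwo*) was called with no filter, with 2 groups only and with no variance trend, and 1 to 2 with a library left out. Leaving out a library gave 1 call at 4 hr and 0 at 24 hr. Of the pathway list at 24 hr, 1 gene was called with no filter (*ctrip*), with size factors, quantile normalization or the mitochondrial genome removed (*lark* each time), 0 with no variance trend or the covariate, and 0 to 2 with a library left out. At 4 hr it was 0 to 1 (*mts*, without uninjured replicate 3).

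Signs turned for genes that passed no test. Under size factors, *tim* had -0.026 at 4 hr and -0.33 at 24 hr, *Clk* -0.27 at 24 hr and *cyc* -0.21 at 4 hr. Under quantile normalization, *tim* had -0.20 and *Clk* -0.12 at 24 hr, and *cyc* -0.26 and *dbt* -0.018 at 4 hr. With the mitochondrial genome removed, *tim* had -0.031 at 4 hr and -0.24 at 24 hr, *Clk* -0.18 at 24 hr and *cyc* -0.22 at 4 hr. With the covariate, *per* had -1.04 at 4 hr and -0.78 at 24 hr, *tim* -0.10 and -0.32, *Clk* -0.45 at 24 hr and *dbt* -0.023 at 4 hr. With a library left out, *cyc* at 24 hr ran from -0.14 to 0.030 and *Pdp1* at 4 hr from -0.11 to 0.048. *Lsm12* at 24 hr had -0.21, -0.18 and -0.12 with size factors, quantile normalization and the mitochondrial genome removed. The cause was not tested.

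These scalings moved the median of all genes from 0.31 at 4 hr and 0.51 at 24 hr to 0.02 and 0.10 (size factors), -0.06 and -0.02 (quantile) or 0.03 and 0.19 (mitochondrial genome removed). The share of calls that were higher at 4 hr moved from 96.3% (467 higher, 18 lower) to 81.7% and 77.7% (size factors and quantile), and at 24 hr from 97.3% (183 and 5) to 69.4% and 68.2%. The 24 hr exact permutation p of *vri*, *cwo* and *dbt* became 0.0556, 0.0873 and 0.0635 with size factors.

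Replicate numbers here are those of the sample titles. The deposited column names number the uninjured and 24 hr libraries otherwise, so a shared number is not known to mark a shared batch. Samples of the same number deviated together only in part (correlations of -0.04 to 0.54), so they were not taken as pairs. The block changed no other count of clock genes, while calls over all genes at 24 hr became 584 higher and 14 lower. The search for E-boxes in promoters was not run, since no promoter sequence was used here. The paper gives an average depth but not that of each library, so no counting errors are given for low genes such as *per* and *dbt*.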
